A study of Homo sapiens with 9 samples.

Results

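The 26S proteasome is the machine that destroys ubiquitin-tagged proteins, and the genes described here encode most of it apart from the catalytic subunits. They are the 41 protein-coding genes named PSMA, PSMB, PSMC, PSMD, PSME, PSMF or PSMG with a number, together with POMP and ADRM1, after leaving out 9 genes for the catalytic beta subunits and for PA28 alpha and beta. They were taken by name from a table of 60612 genes, of which 19937 are protein-coding. The members lie on 18 chromosomes, 6 of them on chromosome 17 and 4 on chromosome 14.

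Expression was measured by RNA sequencing at 72 h in MV4-11, a cell line from human acute myeloid leukaemia, so all groups share 1 line. NCO is labelled CD36 knockdown with decitabine, NC1 wild type with decitabine and KO1 wild type with vehicle, with 3 libraries each. Decitabine is a cytosine analogue that traps DNA methyltransferases, and CD36 is a membrane receptor for fatty acids. The labels give neither the dose nor the way CD36 was knocked down, and do not say that replicates were separate cultures, so p-values measure only the spread between these libraries. Values are in FPKM, fragments per kilobase of transcript scaled to library size, as the authors deposited them. No counts were used, so the depth behind them is unknown.

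CD36 itself did not follow its label. It stood at 2.31, 2.27 and 2.88 FPKM in NCO, against a mean of 2.18 FPKM in NC1 and 0.126 FPKM in KO1, so the libraries labelled as knockdown were not lower than NC1. Groups are therefore called by the stems of their titles. Of 9 myelomonocytic markers 8 were expressed at 1 FPKM or more, with sums of 480 to 510 FPKM in NCO, 521 to 562 in NC1 and 357 to 371 in KO1. Most of the gap in these sums is CD68, at a mean of 196 FPKM in NCO, 240.3 in NC1 and 72.1 in KO1, while SPI1 was at 145 FPKM in NCO, 162 in NC1 and 163 in KO1. Of 4 lymphoid markers none reached that level and 2 were listed at 0; of 3 erythroid markers none reached it and 2 were listed at 0; of 4 epithelial and stromal markers 1 reached it and 1 was listed at 0. NC1 replicate 3 stood apart, with mitochondrial genes at 14.5% of its FPKM sum against 17.6% and 17.3% in the other NC1 libraries, and it was the highest library of its group for 24 of the 40 measured members, or 60% of them, against 48.0% of all tested genes.

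The proteasome joins a barrel, the 20S core, to a cap, the 19S regulatory particle. The core stacks outer rings of alpha subunits, which form its gate, on inner rings of beta subunits, only some of which cut peptide bonds. The 19S base holds a ring of ATPases (PSMC genes) that unfolds substrates and pushes them through the gate, while ubiquitin receptors and the lid bind the substrate and take off its ubiquitin. Chaperones build the core (PSMG genes and POMP) and the base (PSMD5, PSMD9 and PSMD10), and other caps can replace the 19S. Cells that lack proteasome activity are known to raise these genes together through the transcription factor NFE2L1, which binds antioxidant response elements in their promoters.

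Some of these promoters show that element, with a core of TGACNNNGC. Promoter windows from 250 bases before to 50 after the start (RefSeq, GRCh38.p14) were matched for 37 of the 41 members, in 45 windows; PSMA7, PSMB1, PSMD4 and PSMG3 had no match. On either strand the core was found in 14 windows of 13 genes, 31.1% of the members' windows against 13.3% of 35116 windows of all genes and 14.8% of those of tested genes. The stretches below are shown because they carry the core upstream of the RefSeq start of a core subunit, a ubiquitin receptor and a lid subunit. For ADRM1 the deposited gene begins earlier, at 62302093, so its stretch lies inside the deposited span. Capitals mark the core, all on the strand of the gene.
PSMB3 (chr17:38752611-38752670, plus strand): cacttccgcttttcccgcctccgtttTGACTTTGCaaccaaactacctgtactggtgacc
ADRM1 (chr20:62302733-62302792, plus strand): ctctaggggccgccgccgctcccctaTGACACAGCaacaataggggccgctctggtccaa
PSMD12 (chr17:67366709-67366768, minus strand): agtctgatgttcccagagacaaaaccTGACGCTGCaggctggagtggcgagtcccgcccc

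A core of the motif bound by ETS factors, CCGGAA on either strand, was in 53.3% of the members' windows, which belong to 23 genes, against 17.2% of all windows and 28.0% of those of tested genes. It is shown upstream of the ATPase gene PSMC3, where capitals mark it on the strand opposite to the gene.
PSMC3 (chr11:47426564-47426623, minus strand): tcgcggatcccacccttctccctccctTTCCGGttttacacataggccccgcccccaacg

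Other motifs stood nearer to the background. CCAAT was in 42.2% of the members' windows against 34.6% of all, GGGCGG in 71.1% against 45.0% of all and 66.7% of those of tested genes, and CACGTG in 6.67% against 7.26%. The heat shock element, searched as GAA, TTC and GAA with 2 free bases between each, was in none of the members' windows, against 0.490% of all windows. The motifs were picked with values known, both strands were searched and motifs may overlap. The median share of G and C bases was 62.7% in the members' windows and 58.7% in all windows. How far this base content accounts for the shares of motifs was not tested. A match in these letters is a description of the sequence, and no binding was measured here.

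Among the 41 members, 40 passed the filter of 1 FPKM in 3 or more of the 9 libraries and entered the test. PSMA8, an alpha subunit specific to testis, was listed at 0 in all 9 libraries. The genes of this one machine did not have equal levels. PSMB4, a beta subunit without catalytic activity, was highest in every group and PSMD5, a base chaperone, was lowest, a ratio between them of 36.3 in NCO, 51.7 in NC1 and 81.2 in KO1. The median member stood at 34.7 FPKM in NCO, 40.6 in NC1 and 34.3 in KO1, above 86.9%, 88.2% and 86.2% of tested genes in these groups. The same 8 genes, PSMB4, PSMA6, PSMA7, PSMD4, PSMB3, PSMB1, PSMD8 and PSMC3, were highest in each group and held 49.7% of the members' summed FPKM in NCO, 51.3% in NC1 and 56.3% in KO1.

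By its labels, NC1 against KO1 compares decitabine with vehicle in wild-type cells. CD36 differed there too, at a mean of 2.18 FPKM in NC1 and 0.126 in KO1. The members split, with 11 of 40 higher in NC1, 8 lower, and 21 without a call. Called means an adjusted p under 0.05 in limma, fitted to log2(FPKM + 1) over all 12586 tested genes with Benjamini-Hochberg adjustment. The share called, 47.5%, was near the 47.2% of all tested genes, of which 28.9% were higher and 18.3% lower. Libraries did not overlap for 12 members with higher and 8 with lower values, against a background of 56.5% of all tested genes, 34.5% higher and 21.9% lower. The members' median difference was 0.03 on the log2 scale, against 0.06 for all genes. The balance depends on scaling, as trimmed-mean scaling gave 8 higher and 12 lower, quantile normalisation 9 and 8, and removal of mitochondrial genes 15 and 4.

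By the labels, NCO and NC1 differ in the knockdown of CD36 under decitabine, though mean CD36 was 2.49 FPKM in NCO and 2.18 in NC1. Here the calls went mostly 1 way: 11 of 40 members were lower in NCO, 1 was higher and 28 were not called. The 30% called compare with 14.7% of all tested genes, and the 27.5% called lower with 8.62%; the 2.5% called higher compare with 6.12%. Libraries did not overlap for 20 members with lower values in NCO and 2 with higher values, against 34.3% of all tested genes, 16.8% with lower and 17.5% with higher values. The median was -0.11 against 0.01 for all genes. The count of lower members was 4 under quantile normalisation, 6 without NCO replicate 1 and 7 without NCO replicate 2. The count of higher members was 2 without NC1 replicate 3. Over all tested genes 1085 were lower as deposited, 923 under quantile normalisation, 762 without NCO replicate 1 and 633 without NCO replicate 2. Higher calls over all tested genes went from 770 to 717 without NC1 replicate 3. Among all tested genes at least as highly expressed as the 8 highest members, 35.7% were called lower as deposited and 13.3% under quantile normalisation.

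Between NCO and KO1, which differ by both labels, 8 members were higher in NCO, 13 lower and 19 not called, 52.5% called against 52.2% of all tested genes. By direction, 20% were higher against 32.1% of all genes, and 32.5% lower against 20.1%. Libraries did not overlap for 8 members with higher and 16 with lower values, against 61.2% of all tested genes, 37.2% higher and 24% lower. With mitochondrial genes removed the balance turned, to 13 higher and 7 lower, and that scaling moved the median of all genes from 0.08 to 0.19. Calls over all tested genes went from 4041 higher and 2527 lower to 5805 and 1614 of 12561 genes. Relative to all genes the members' median lay at -0.13 as deposited, -0.14 under trimmed-mean scaling, -0.12 with mitochondrial genes removed and -0.05 under quantile normalisation. The 3 comparisons share groups, so their calls are not independent.

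**Figure D1:**
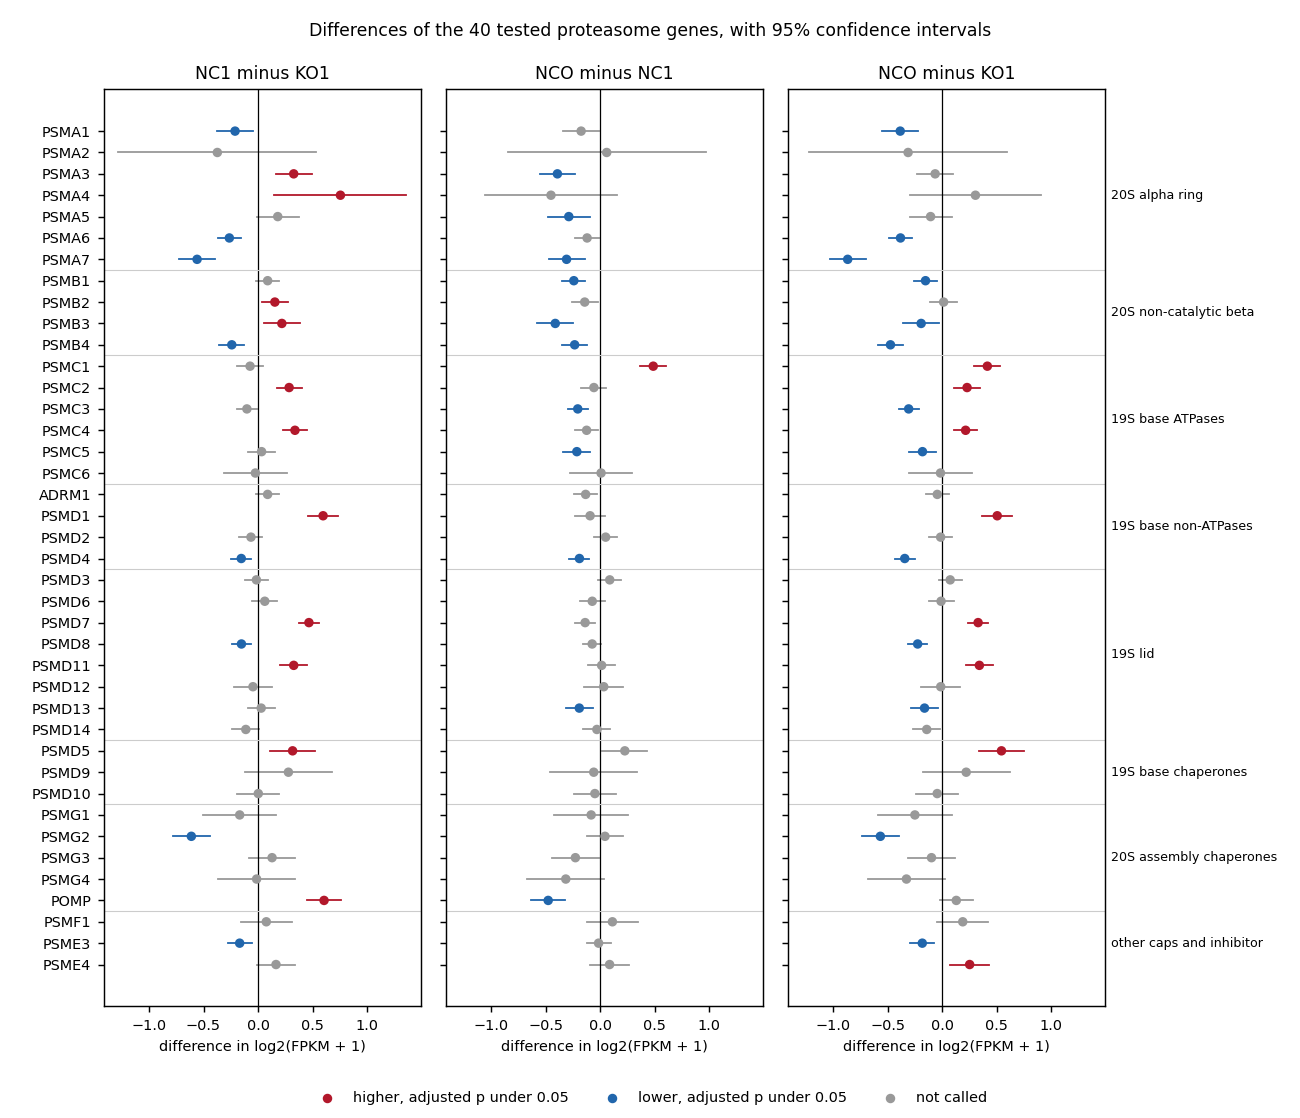
Differences in log2(FPKM + 1) of the 40 tested members, ordered by role, with 95% confidence intervals from limma. Red points are called higher and blue points lower at an adjusted p under 0.05, and grey points are not called; the widest intervals belong to PSMA2 and PSMA4.

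Across the 3 comparisons the members fell into a few patterns. The commonest was no call in any of them, for 14 members, among them the lid subunits PSMD3, PSMD6, PSMD12 and PSMD14 and the chaperones PSMD9, PSMD10, PSMG1, PSMG3 and PSMG4. Of these 14, 5 were not called under any alternative processing either (PSMC6, PSMD6, PSMD12, PSMD10 and PSMG3) and 9 were called under some alternative. A further 6 members were higher in both NCO and NC1 than in KO1 and were not called between NCO and NC1, and all 6 belong to the 19S particle or its chaperones (PSMC2, PSMC4, PSMD1, PSMD7, PSMD11 and PSMD5). Of the 40 tested members, 18 belong to the 19S base and lid and 3 to the base chaperones. Those 18 also gave 2 lower calls in NC1 against KO1 and 5 in NCO against KO1. Another 5 members were lower in both NCO and NC1 than in KO1 (PSMA1, PSMA6, PSMD8, PSMG2 and PSME3). Lower in NCO than in either other group were 4 members that were not called between NC1 and KO1 (PSMB1, PSMC3, PSMC5 and PSMD13), and 3 were lower in all 3 comparisons (PSMA7, PSMB4 and PSMD4). The pattern of POMP and PSMA3, higher in NC1 than in both other groups, was carried by these 2 members alone, and PSMB3 shared it with a lower level in NCO than in KO1. The share of all tested genes in each pattern was not computed, so these counts only describe the members.

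The alpha ring, whose 7 subunits form the gate of the barrel, moved in both directions in NC1 against KO1, where 2 were higher and 3 lower. Of all tested genes 28.9% were higher and 18.3% lower in that comparison. PSMA7 (chromosome 20, 62136733 to 62143440, minus strand, GRCh38) was at 124, 122 and 128 FPKM in NCO, 143, 145 and 179 in NC1 and 230, 235 and 220 in KO1. The 3 groups did not overlap, and NCO was lowest. It fell by 0.56 on the log2 scale in NC1 against KO1 (SE 0.08, limma adjusted p = 0.000122) and by 0.87 in NCO against KO1 (adjusted p = 4.64e-06). Between NCO and NC1 it fell by 0.31 (adjusted p = 0.0214). That call was lost under quantile normalisation (adjusted p = 0.135), without a filter on low values (0.0973), without NCO replicate 1 (0.0628) and without NCO replicate 2 (0.0737).

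PSMA6 (chromosome 14, 35278633 to 35317493) had 156, 155 and 143 FPKM in NCO, 165, 162 and 166 in NC1 and 203, 202 and 186 in KO1. All KO1 libraries lay above the others, and in limma the gene fell by 0.26 in NC1 (adjusted p = 0.00113) and by 0.38 in NCO (adjusted p = 7.79e-05) against KO1. The protein-coding gene AL121594.1 shares 38842 bases with PSMA6 on the same strand. It was at 5.10 FPKM in NC1 replicate 3 and at most 0.345 in the other libraries, and how reads were divided was not tested. PSMA1 (chromosome 11, 14504874 to 14643635, minus strand) read 66.1, 66.8 and 66.8 FPKM in NCO, 72.5, 71.4 and 82.2 in NC1 and 95, 90.6 and 77.2 in KO1. NCO was separate from both other groups, while NC1 replicate 3 lay above KO1 replicate 3. Its fall in NCO against KO1 was 0.39 (limma adjusted p = 0.00135). In NC1 against KO1 it was 0.21 (adjusted p = 0.0375), and that call was lost without KO1 replicate 1 (0.150), KO1 replicate 2 (0.114), NC1 replicate 1 (0.110), NC1 replicate 2 (0.120) or any 1 of the NCO libraries (0.0509 to 0.0514), and with mitochondrial genes removed (0.0946).

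PSMA3 and PSMA4 were the alpha genes called higher in NC1 than in KO1. PSMA3 (chromosome 14, 58244843 to 58272012) stood at 36.5, 34.2 and 36.0 FPKM in NCO, 42.0, 46.0 and 53.5 in NC1 and 37.0, 38.5 and 36.2 in KO1. NC1 lay above both other groups, which overlapped. In limma the gene rose by 0.33 in NC1 against KO1 (SE 0.07, adjusted p = 0.00405) and it fell by 0.39 in NCO against NC1 (adjusted p = 0.00756), while NCO minus KO1 was -0.07 (adjusted p = 0.482). The antisense gene PSMA3-AS1 overlaps it and averaged 5.67 FPKM in NCO, 5.87 in NC1 and 5.25 in KO1.

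For PSMA4 (chromosome 15, 78540405 to 78552417) the libraries gave 86.4, 54.1 and 48.8 FPKM in NCO, 93.0, 97.9 and 64.9 in NC1 and 41.4, 48.5 and 59.8 in KO1. It had the largest difference between NC1 and KO1 of all members and also a wide spread, with NC1 replicate 3 close to KO1 replicate 3 and NCO replicate 1 far above the other NCO libraries. NC1 exceeded KO1 by 0.76 (95% confidence interval 0.15 to 1.36, limma adjusted p = 0.0457). That call was lost under trimmed-mean scaling (0.0586), without a filter on low values (0.0682) and with the replicate block (0.0829). It was also lost without KO1 replicate 1 (0.136), KO1 replicate 2 (0.105), NC1 replicate 1 (0.127), NC1 replicate 2 (0.129) or NCO replicate 2 (0.0623). Another alpha gene, PSMA5, averaged 34.3 ± 1.75 FPKM in NCO and 42.4 ± 6.07 in NC1 (SD, n = 3 each). Its adjusted p of 0.0497 in limma became larger than 0.05 whichever library was left out except NC1 replicate 1 (0.0561 to 0.145), and without NC1 replicate 1 it was called higher in NC1 than in KO1 (0.0426). The call between NCO and NC1 was also lost under quantile normalisation (0.0902) and with mitochondrial genes removed (0.0703).

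PSMA2, singled out after its values were seen, had the widest spread of all. Its values were 42.9, 38.1 and 38.2 FPKM in NCO, 46.7, 19.3 and 60.3 in NC1 and 47.8, 55.0 and 46.2 in KO1. NC1 replicate 2 was far below its group. A second protein-coding gene of the table, AC010132.3, lies over PSMA2 on the same strand (15314 shared bases) and was at 0.02, 3.31 and 1.43 FPKM in NCO, 0.06, 18.9 and 0.00 in NC1 and 0.03, 0 and 0 in KO1. The library with the lowest PSMA2 value thus had the highest value of the overlapping gene, and how the authors' software divided reads between them was not tested. PSMA2 was not called in any comparison, but NCO and KO1 did not overlap. Their difference of -0.31 had a limma adjusted p of 0.52 with all libraries, 0.0239 without NC1 replicate 2 and 0.00561 in a fit of only these 6 libraries.

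**Figure D2:**
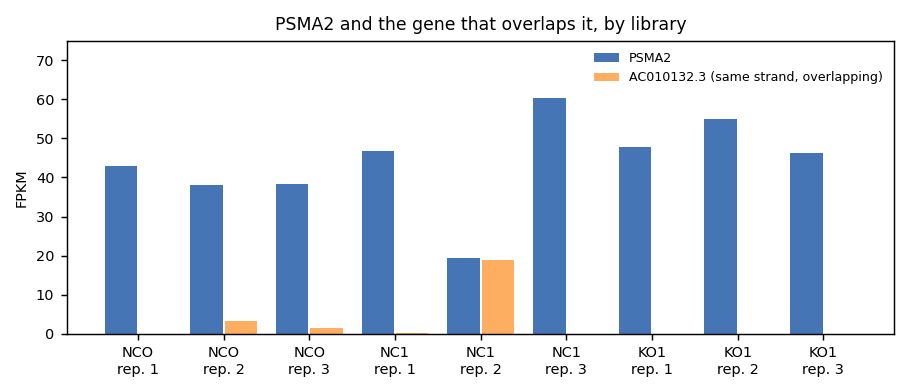
FPKM of PSMA2 (blue) and of the overlapping gene AC010132.3 (orange) in each library. In NC1 replicate 2 the bars are at 19.3 and 18.9 FPKM, and in the other 8 libraries PSMA2 stands far above the overlapping gene.

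Of the 4 beta subunits without catalytic activity, 3 were called lower in NCO than in NC1, against 8.62% of all tested genes. These, PSMB1, PSMB3 and PSMB4, are among the 8 highest members. Of 645 tested genes at or above the level of the lowest of the 8, 35.7% were called lower. PSMB4 (chromosome 1, 151399560 to 151401937) measured 168, 176 and 175 FPKM in NCO, 191, 202 and 219 in NC1 and 247, 243 and 233 in KO1. As with PSMA7, the groups were separate and ordered from NCO up to KO1. Against KO1 it fell by 0.24 in NC1 (limma adjusted p = 0.00296) and by 0.48 in NCO (adjusted p = 2.62e-05). In NCO against NC1 it fell by 0.23 (adjusted p = 0.0149), which did not hold under quantile normalisation (0.140), without a filter on low values (0.0590) or without NCO replicate 1 (0.0551).

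PSMB3 (chromosome 17, 38752741 to 38764225), whose promoter stretch is printed above, came to 98.0, 101 and 105 FPKM in NCO, 126, 126 and 155 in NC1 and 119, 119 and 110 in KO1. NCO was lowest and NC1 replicate 3 highest by far. It fell by 0.41 in NCO against NC1 (SE 0.07, limma adjusted p = 0.00605), a call that held under every alternative. The rise of 0.22 in NC1 against KO1 (adjusted p = 0.0322) was not called under trimmed-mean scaling (0.127) or quantile normalisation (0.0609), nor without NC1 replicate 3 (0.0657), KO1 replicate 1 (0.0510), KO1 replicate 2 (0.0551) or KO1 replicate 3 (0.108). Its lower level in NCO than in KO1 (-0.19, adjusted p = 0.0476) was lost without KO1 replicate 1, KO1 replicate 2 or any 1 of the NCO libraries, at adjusted p of 0.0606 to 0.134. It shrank to -0.06 with mitochondrial genes removed (0.475) and to -0.08 under quantile normalisation (0.389).

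PSMB1 averaged 98.0 ± 2.99 FPKM in NCO, 116 ± 6.70 in NC1 and 109 ± 1.11 in KO1 (SD, n = 3). NCO was called lower than NC1 (limma adjusted p = 0.00924), though not under quantile normalisation (0.133), and lower than KO1 (0.0197), the second not under quantile normalisation (0.590), with mitochondrial genes removed (0.782) or without KO1 replicate 3 (0.0556), NCO replicate 1 (0.0650) or NCO replicate 2 (0.0659). Without NC1 replicate 2, NC1 was called higher than KO1 (0.0375), as with mitochondrial genes removed (0.0188). PSMB2 was at 20.9 ± 0.658 FPKM in NCO, 23.2 ± 0.936 in NC1 and 20.7 ± 0.940 in KO1 (SD, n = 3). Its higher level in NC1 than in KO1 (limma adjusted p = 0.0387) lost the call under trimmed-mean scaling (0.191), without a filter on low values (0.0757) and with the replicate block (0.0693). The call was also lost in a fit of only these 6 libraries (0.0557), and without KO1 replicate 2, KO1 replicate 3, NC1 replicate 2, NC1 replicate 3 or NCO replicate 2 (0.0529 to 0.137).

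Of all 11 genes of the core without catalytic activity, 4 were higher and 4 lower in NC1 than in KO1. The shares of all tested genes were 28.9% and 18.3%. In NCO against NC1, 6 were lower and 0 higher, against 8.62% and 6.12% of all tested genes. At an unadjusted p under 0.05 in limma these last counts were 9 lower and 0 higher, where 16.1% of all tested genes were lower and 15.1% higher. In NCO against KO1 6 were lower and 0 higher at either threshold, where 22.6% of all tested genes were lower and 36% higher at the unadjusted one. Quantile normalisation left fewer of the NCO against NC1 calls, as PSMA5, PSMA7, PSMB1 and PSMB4 then missed the threshold. PSMA6, PSMA7, PSMB1, PSMB3 and PSMB4 are among the 8 highest members. Of 645 tested genes at or above the level of the lowest of the 8, 35.7% were called lower in that comparison. The share was 13.3% under quantile normalisation.

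In the regulatory particle the calls were mixed. Among its 6 ATPases 2 were higher and 0 lower in NC1 than in KO1, against 28.9% and 18.3% of all tested genes. At an unadjusted p under 0.05 in limma 1 was lower, where 21.3% of all tested genes were lower and 32.8% higher. In NCO against NC1, 1 was higher and 2 lower, against 6.12% and 8.62% of all tested genes. PSMC1 (chromosome 14, 90256527 to 90275429) was the only member called higher in NCO than in NC1. Its libraries gave 34.2, 37.0 and 34.0 FPKM in NCO, 23.5, 24.8 and 25.9 in NC1 and 26.5, 26.1 and 25.6 in KO1. All NCO libraries lay above the other 6, which overlapped with each other. NCO exceeded NC1 by 0.49 (SE 0.05, limma adjusted p = 0.000536) and KO1 by 0.41 (adjusted p = 8.96e-05), and both calls held under every alternative. The table lists 13 named pseudogenes of PSMC1, each at no more than 1.23% of its level.

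PSMC4 (chromosome 19, 39971165 to 39981764) was at 36.9, 36.2 and 35.1 FPKM in NCO, 38.8, 39.9 and 39.5 in NC1 and 32.8, 29.7 and 30.5 in KO1. KO1 was lowest in every library. Against KO1, limma gave a rise of 0.34 in NC1 (SE 0.05, adjusted p = 0.000225) and of 0.21 in NCO (adjusted p = 0.00399). PSMC2 had the same order of calls at 23.7 ± 0.928 FPKM in NCO, 24.7 ± 0.948 in NC1 and 20.1 ± 0.487 in KO1 (SD, n = 3).

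PSMC3 and PSMC5 went the other way. PSMC3 averaged 82.4 ± 0.687 FPKM in NCO, 95.2 ± 3.33 in NC1 and 102 ± 2.98 in KO1 (SD, n = 3), lower in NCO than in NC1 (limma adjusted p = 0.0105) and KO1 (0.00013). Between NC1 and KO1 it was called only without NC1 replicate 2 (0.0421) or under trimmed-mean scaling (0.00762). PSMC5 was at 56.9 ± 1.53 FPKM in NCO, 66.2 ± 3.79 in NC1 and 64.7 ± 3.71 in KO1 (SD, n = 3). Its call between NCO and NC1 (limma adjusted p = 0.0281) was lost without NC1 replicate 1, NC1 replicate 2 or any 1 of the NCO libraries (0.0548 to 0.0920), under quantile normalisation (0.121) and with mitochondrial genes removed (0.0950). The call between NCO and KO1 (0.0181) was lost without KO1 replicate 1 (0.0828) or NCO replicate 3 (0.0582), under quantile normalisation (0.104) and with mitochondrial genes removed (0.522). It overlaps FTSJ3 on the opposite strand, a gene at 12.1 to 14.5 FPKM in group means. PSMC6 stayed without a call, at 16.8 ± 0.513 FPKM in NCO, 17 ± 3.58 in NC1 and 17.1 ± 2.35 in KO1.

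In the rest of the base, PSMD1, the large scaffold to which other subunits bind, was higher in both NCO and NC1 than in KO1. PSMD1 (chromosome 2, 231056864 to 231172827) had 18.3, 17.5 and 17.1 FPKM in NCO, 19.2, 18.7 and 18.7 in NC1 and 11.1, 12.6 and 12.9 in KO1. The gap to KO1 was wider than the spread within any group. Compared with KO1, PSMD1 rose by 0.60 in NC1 (SE 0.06, limma adjusted p = 1.88e-05) and by 0.50 in NCO (adjusted p = 6.37e-05). PSMD2, the other large scaffold, was not called, at 51.6 ± 1.36 FPKM in NCO, 49.8 ± 1.5 in NC1 and 52.2 ± 2.34 in KO1 (SD, n = 3).

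PSMD4 and ADRM1 are ubiquitin receptors of the base. PSMD4 averaged 137 ± 1.89 FPKM in NCO, 157 ± 5.36 in NC1 and 175 ± 4.52 in KO1 (SD, n = 3) and was called in all 3 comparisons, in NCO against KO1 at -0.34 (limma adjusted p = 5.11e-05). Its call between NCO and NC1 was lost under quantile normalisation (adjusted p = 0.324) and that between NC1 and KO1 with mitochondrial genes removed (0.0902). ADRM1 was not called with all libraries, at 67.9 ± 1.12 FPKM in NCO, 74.6 ± 3.79 in NC1 and 70.1 ± 2.05 in KO1. Without NC1 replicate 3 it was called higher in NC1 than in KO1 (limma adjusted p = 0.0358) and lower in NCO than in NC1 (0.0285), and with mitochondrial genes removed the first was called (0.0212).

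The lid gave 2 higher and 1 lower of 8 in NC1 against KO1, where 28.9% and 18.3% of all tested genes were. In NCO against NC1 it gave 0 higher and 1 lower, against 6.12% and 8.62%. At an unadjusted p under 0.05 in limma these last counts were 0 and 2, against 15.1% and 16.1%. PSMD7 (chromosome 16, 74296814 to 74306288), which pairs with the deubiquitinase PSMD14, was at 50.9, 51.2 and 51.7 FPKM in NCO, 54.9, 57.8 and 56.8 in NC1 and 42.0, 39.7 and 40.1 in KO1. Libraries of the 3 groups did not overlap. PSMD7 rose by 0.47 in NC1 against KO1 (SE 0.04, limma adjusted p = 7.16e-06), NCO exceeded KO1 by 0.33 (adjusted p = 9.6e-05), and NCO minus NC1 was -0.14 (adjusted p = 0.0544, and 0.0493 under trimmed-mean scaling). PSMD14 itself averaged 27.4 ± 0.913 FPKM in NCO, 28.0 ± 1.77 in NC1 and 30.4 ± 1.01 in KO1 (SD, n = 3), with no call. Without NC1 replicate 3 it was called lower in NC1 than in KO1 (limma adjusted p = 0.0415) and in NCO than in KO1 (0.0317), the second also without NC1 replicate 1 (0.0439). Under trimmed-mean scaling both were called, at -0.19 in NC1 (0.00888) and -0.23 in NCO (0.00274).

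PSMD11 (chromosome 17, 32444379 to 32483319), a lid subunit that helps to hold base and core together, read 13.8, 14 and 14.1 FPKM in NCO, 14, 13.6 and 13.9 in NC1 and 11.1, 11.3 and 10.1 in KO1. NCO and NC1 lay on top of each other and above KO1. Relative to KO1 it rose by 0.33 in NC1 (SE 0.06, limma adjusted p = 0.000797) and by 0.34 in NCO (adjusted p = 0.000555), while NCO minus NC1 was 0.01 (adjusted p = 0.904). PSMD8 was lower in both, at 91.6 ± 0.705 FPKM in NCO, 96.5 ± 2.77 in NC1 and 107 ± 0.789 in KO1, though in neither comparison with mitochondrial genes removed (adjusted p = 0.0767 for NCO and 0.112 for NC1). PSMD13 was at 52.9 ± 0.763 FPKM in NCO, 60.7 ± 5.01 in NC1 and 59.4 ± 1.46 in KO1 (SD, n = 3). Its call between NCO and NC1 (limma adjusted p = 0.0435) was lost without any 1 library other than NC1 replicate 1 (0.0565 to 0.120), and that between NCO and KO1 (0.0309) without any 1 KO1 library, NCO replicate 1 or NCO replicate 2 (0.0538 to 0.0980). Quantile normalisation ended both calls, at -0.11 against NC1 (0.165) and -0.09 against KO1 (0.170), and so did removal of mitochondrial genes, at -0.13 (0.0952) and -0.03 (0.660).

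**Figure D3:**
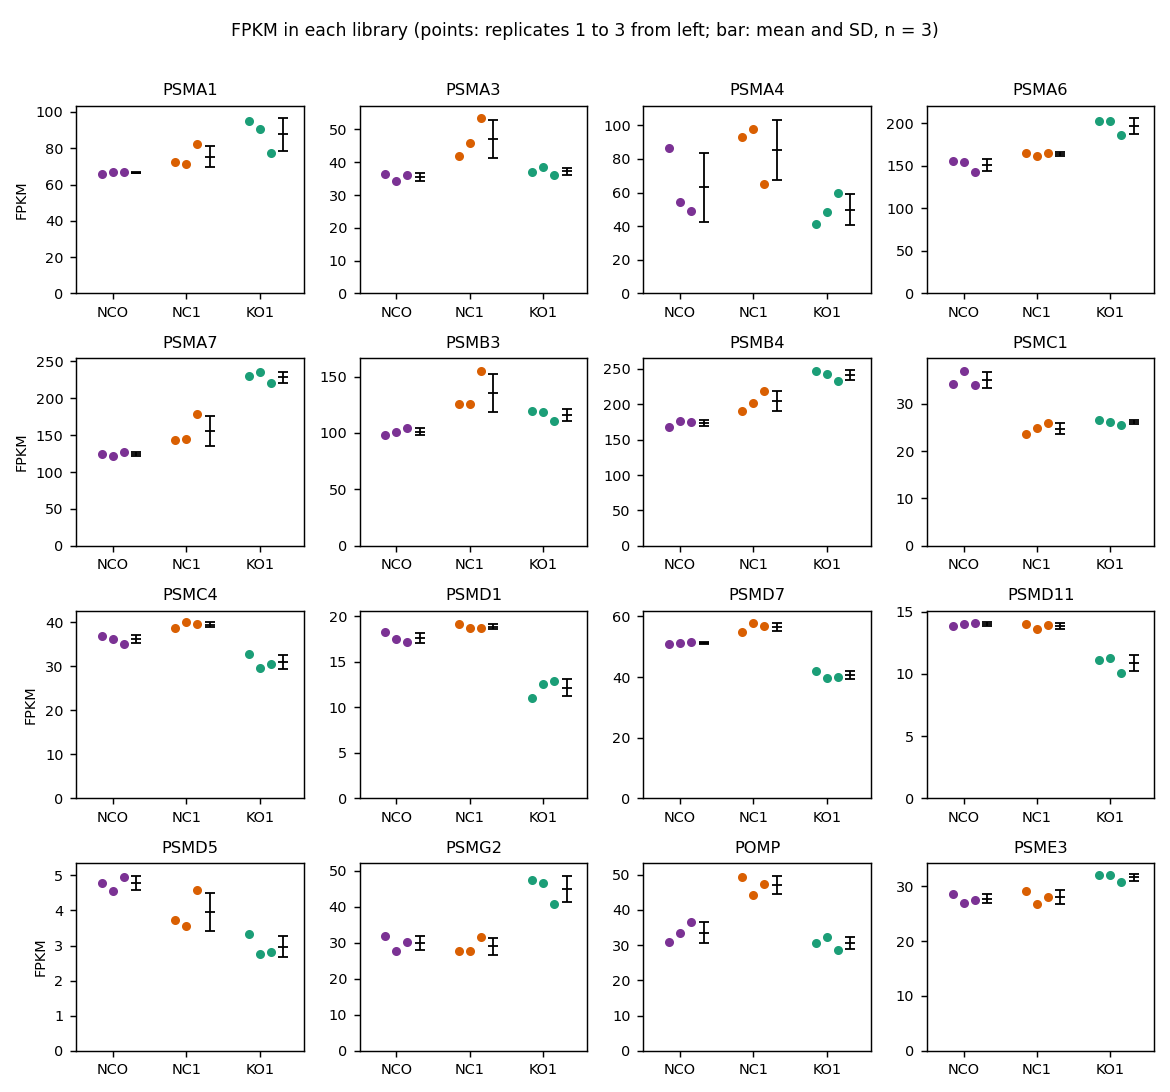
FPKM of the 16 members given library by library, with NCO, NC1 and KO1 from left to right, points for replicates 1 to 3, and black bars for the mean and SD (n = 3); each axis starts at 0. PSMD1, PSMD7, PSMD11 and PSMC4 are low in KO1, PSMA7, PSMB4 and PSMG2 are high in KO1, POMP and PSMA3 are high in NC1, and PSMC1 is high in NCO.

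Of the chaperones of the base, only PSMD5 was called. PSMD5 (chromosome 9, 120815496 to 120842951, minus strand) had 4.79, 4.56 and 4.96 FPKM in NCO, 3.72, 3.55 and 4.58 in NC1 and 3.31, 2.77 and 2.82 in KO1. Values were lowest in KO1, and NC1 replicate 3 reached into the range of NCO. NCO exceeded KO1 by 0.54 (SE 0.09, limma adjusted p = 0.000627). NC1 exceeded KO1 by 0.32 (adjusted p = 0.0163), a call lost under quantile normalisation (0.0904) and without NC1 replicate 3 (0.0579), KO1 replicate 2 (0.0576) or KO1 replicate 3 (0.0528). Without NC1 replicate 3, NCO was also called higher than NC1 (0.0429). The transcribed pseudogene CUTALP overlaps it on the other strand over 18124 bases, with means of 2.94 FPKM in NCO, 2.33 in NC1 and 3.30 in KO1. PSMD10, also called gankyrin, was at 12.7 ± 0.899 FPKM in NCO, 13.2 ± 1.67 in NC1 and 13.2 ± 0.927 in KO1, and PSMD9 at 14.8 ± 1.27 FPKM in NCO, 15.5 ± 2.09 in NC1 and 12.9 ± 3.96 in KO1 (SD, n = 3). PSMD9 in KO1 rested on replicate 2: without it NC1 minus KO1 was 0.50 (limma adjusted p = 0.00792) and NCO minus KO1 0.44 (0.0132), against 0.28 (0.226) and 0.22 (0.323) with it.

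The factors that assemble the core did not move together, with 1 of 5 higher and 1 lower in NC1 than in KO1. Of all tested genes 28.9% were higher and 18.3% lower in that comparison. POMP (chromosome 13, 28659104 to 28678959), which guides the last steps of core assembly and is then degraded, was at 30.8, 33.4 and 36.6 FPKM in NCO, 49.4, 44.3 and 47.4 in NC1 and 30.7, 32.4 and 28.7 in KO1. NC1 lay above both other groups, which overlapped. POMP rose by 0.61 in NC1 against KO1 (SE 0.07, limma adjusted p = 3.9e-05) and fell by 0.48 in NCO against NC1 (adjusted p = 0.00229), and NCO minus KO1 was 0.13 (adjusted p = 0.145, and 0.00746 with mitochondrial genes removed). The calls against NC1 held under every alternative.

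PSMG2 (chromosome 18, 12658043 to 12725740), which forms a pair with PSMG1 that scaffolds the alpha ring, went in the opposite direction. Its values were 31.9, 27.8 and 30.2 FPKM in NCO, 27.7, 27.7 and 31.8 in NC1 and 47.4, 46.5 and 40.8 in KO1. NCO and NC1 overlapped, and both lay below every KO1 library. It fell by 0.61 in NC1 against KO1 (SE 0.08, limma adjusted p = 6.72e-05) and by 0.57 in NCO against KO1 (adjusted p = 0.000109), under every alternative. CEP76 overlaps PSMG2 on the other strand and averaged 1.87 FPKM in NCO, 1.75 in NC1 and 1.77 in KO1. Its partner PSMG1 was not called, at 17.1 ± 2.12 FPKM in NCO, 18.4 ± 4.14 in NC1 and 20.5 ± 2.02 in KO1 (SD, n = 3), though lower in NCO than in KO1 without NC1 replicate 1 (limma adjusted p = 0.0424). PSMG3 was at 18.5 ± 1.11 FPKM in NCO, 22 ± 3.80 in NC1 and 19.9 ± 0.683 in KO1, and PSMG4 at 6.58 ± 1.71 FPKM in NCO, 8.30 ± 0.709 in NC1 and 8.47 ± 1.62 in KO1, neither called. PSMG4 was called lower in NCO than in KO1 without NCO replicate 2 (limma adjusted p = 0.0108) or KO1 replicate 2 (0.0255), and under quantile normalisation (0.0412).

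The last members are caps other than the 19S and an inhibitor. PSME3 (chromosome 17, 42824385 to 42843760), the nuclear cap PA28 gamma, had 28.6, 27.0 and 27.6 FPKM in NCO, 29.2, 26.8 and 28.1 in NC1 and 32, 32 and 30.8 in KO1. The KO1 libraries lay just above the other 6. It fell by 0.17 in NC1 against KO1 (limma adjusted p = 0.0168) and by 0.18 in NCO against KO1 (adjusted p = 0.00996). With mitochondrial genes removed neither was called (adjusted p = 0.127 for NC1 and 0.424 for NCO), and the NC1 call was also lost without KO1 replicate 1 (0.0567), KO1 replicate 2 (0.0545) or NC1 replicate 2 (0.0650). BECN1 overlaps it on the opposite strand at 21.4 FPKM in NCO, 20.1 in NC1 and 22.4 in KO1, and how reads from the shared stretch were assigned was not tested.

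PSME4, the cap PA200, averaged 6.77 ± 0.623 FPKM in NCO, 6.31 ± 0.402 in NC1 and 5.52 ± 0.409 in KO1 (SD, n = 3). With all genes and libraries it was called only between NCO and KO1 (0.25, limma adjusted p = 0.023), and not under trimmed-mean scaling (0.0672), quantile normalisation (0.238) or without KO1 replicate 1 (0.0925), NCO replicate 1 (0.0522) or NCO replicate 2 (0.0976). With mitochondrial genes removed it was also called between NC1 and KO1 (0.0354). PSMF1, the inhibitor PI31, was at 10.6 ± 0.682 FPKM in NCO, 9.75 ± 1.2 in NC1 and 9.22 ± 1.43 in KO1. It was not called with all libraries, and was higher in NCO than in KO1 without KO1 replicate 2 (limma adjusted p = 0.0312) or with mitochondrial genes removed (0.0166).

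Values were also summed by particle, as a description. The 11 genes of the core without catalytic activity summed to 928, 899 and 898 FPKM in NCO, 1057, 1041 and 1175 in NC1 and 1186, 1201 and 1136 in KO1. NCO lay lowest, and NC1 replicate 3 reached into the KO1 range. The 18 genes of the 19S base and lid summed to 844, 841 and 831 FPKM in NCO, 878, 910 and 904 in NC1 and 907, 899 and 873 in KO1, with NC1 and KO1 overlapping.

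The core sum was also divided by the 19S sum of the same library, a ratio that does not change when a library is scaled by 1 factor. It was not computed under quantile normalisation, which is not such a scaling. The ratio was 1.10, 1.07 and 1.08 in NCO, 1.20, 1.14 and 1.30 in NC1 and 1.31, 1.34 and 1.30 in KO1. NCO was below both other groups in every library and NC1 lay between them, with replicate 3 next to KO1. The core sum includes PSMA2, at 19.3 FPKM in NC1 replicate 2 against 46.7 and 60.3 in the other NC1 libraries. The ratio was not computed without PSMA2. The catalytic beta subunits are left out of the core sum, and they did not all move as it did between KO1 and NC1. PSMB6 averaged 46.3 FPKM in KO1 and 91.3 in NC1, and PSMB8 209 in KO1 and 186 in NC1. No ratio was computed with the catalytic subunits, so the place of NC1 between the other groups holds only for these 11 genes. Group means were 1.08 ± 0.0154 in NCO, 1.22 ± 0.0785 in NC1 and 1.31 ± 0.0190 in KO1 (SD, n = 3). Against NC1, the core sum in NCO differed by -16.7% and the 19S sum by -6.55%. Highly expressed genes weigh most in these sums, and no test was run on them.

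**Figure D4:**
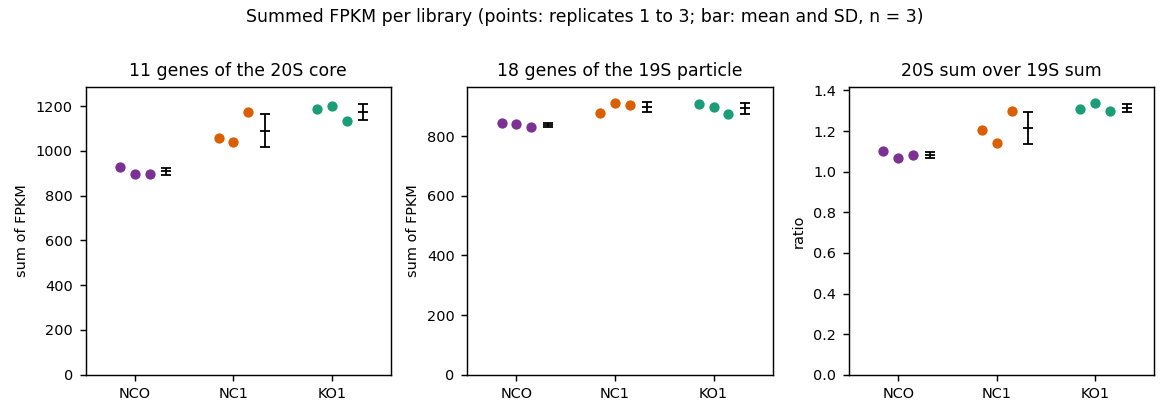
Summed FPKM of 11 core genes without catalytic activity (left) and 18 genes of the 19S particle (middle), and their ratio (right), per library. NCO, NC1 and KO1 stand from left to right, with points for replicates 1 to 3 and bars for the mean and SD (n = 3). The ratio is 1.07 to 1.10 in NCO, 1.14 to 1.30 in NC1 and 1.30 to 1.34 in KO1.

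Level and direction went together among the members. Of the 8 members with the highest mean over all 9 libraries, 8 were lower in NCO than in KO1, 6 lower in NCO than in NC1 and 5 lower in NC1 than in KO1, with 1 higher. Of the other 32, 25% were higher and 15.6% lower in NCO than in KO1, against 32.5% and 22.4% of 7455 tested genes at the levels of these members. In NCO against NC1 3.13% were higher and 15.6% lower, against 8.03% and 9.58% of those genes, and in NC1 against KO1 31.2% were higher and 9.38% lower, against 30.0% and 20.8%. Other genes at the level of the 8 leaned the same way with the values as deposited. Among 645 tested genes at or above the level of the lowest of the 8, 53.5% were lower and 19.5% higher in NCO than in KO1, and 35.7% lower and 4.50% higher in NCO than in NC1. In NC1 against KO1 the same genes were 41.1% lower and 28.7% higher. Under quantile normalisation the 8 gave 6 lower in NCO than in KO1 and 2 lower in NCO than in NC1, with 0 higher in both. There the lean of the 645 genes turned in NCO against NC1, to 18.6% higher and 13.3% lower, and shrank in NCO against KO1, to 30.2% higher and 38% lower. This split was made after the values were seen, and it carries no test.

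**Figure D5:**
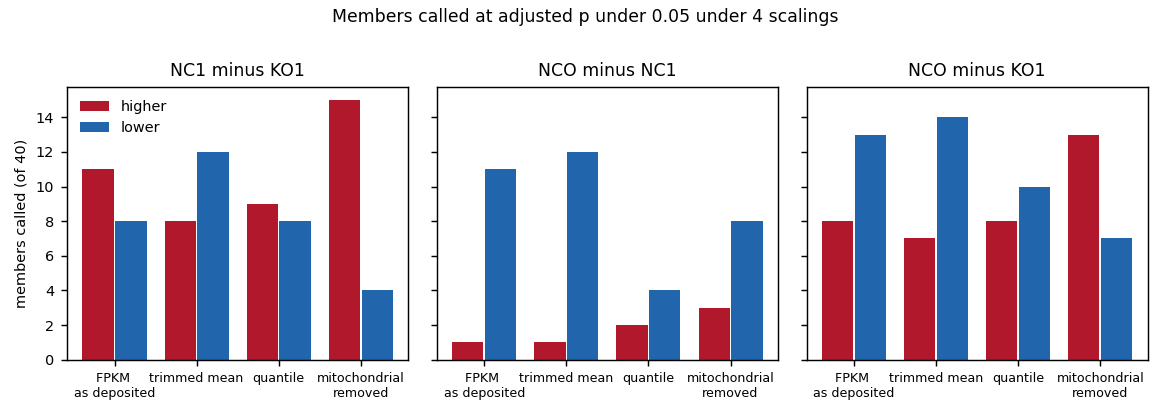
Number of the 40 tested members called higher (red) or lower (blue) at a limma adjusted p under 0.05 in each comparison, under the deposited FPKM and 3 other scalings. Lower calls outnumber higher ones in NCO minus NC1 under all 4, from 12 against 1 under trimmed-mean scaling to 4 against 2 under quantile normalisation, while the balance of the other comparisons turns with the scaling.

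The catalytic beta and PA28 genes are the nearest set for comparison, with 8 of 9 tested. In NCO against NC1 7 were lower and 0 higher, against 8.62% and 6.12% of all tested genes. At an unadjusted p under 0.05 in limma 8 were lower and 0 higher, against 16.1% and 15.1%. In NC1 against KO1 4 were higher and 1 lower, against 28.9% and 18.3%. The shares of all tested genes given here also stand behind the counts of the lists that follow. For highly expressed genes the share lower in NCO than in NC1 was larger. It was 35.7% of 645 tested genes at or above the lowest of the 8 highest members, and 13.3% under quantile normalisation. PSMB8, PSMB10, PSME2 and the ubiquitin gene UBB stand at such levels. Counts of these lists under other scalings are not given. PSMB6, a constitutive catalytic subunit, averaged 78.1 ± 1.62 FPKM in NCO, 91.3 ± 2.58 in NC1 and 46.3 ± 1.42 in KO1 (SD, n = 3), higher in NC1 than in KO1 by 0.96 (limma adjusted p = 1.82e-08). None of the members described above differed by that much between NC1 and KO1. The interferon-inducible PSMB9 stood at 88.6 ± 3.03 FPKM in NCO, 119 ± 8.79 in NC1 and 71.9 ± 3.08 in KO1.

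Proteins that sit on or serve the proteasome moved in both directions. Of 12 such genes 4 were higher and 3 lower in NC1 than in KO1, and 0 higher and 1 lower in NCO than in NC1 (4 and 2 at an unadjusted p under 0.05 in limma). The lower one was SEM1, a small lid subunit whose name falls outside the PSM series, at 15.6 ± 1.30 FPKM in NCO, 22.8 ± 2.65 in NC1 and 16.9 ± 2.54 in KO1 (SD, n = 3). It fell by 0.52 in NCO against NC1 (limma adjusted p = 0.0112). The deubiquitinase USP14 averaged 9.998 ± 0.312 FPKM in NCO and 7.31 ± 0.368 in KO1, and AKIRIN2, which brings proteasomes into the nucleus, 17.8 ± 2.30 FPKM in NCO and 22.7 ± 2.49 in KO1.

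Among the shuttle proteins that deliver ubiquitinated substrates, UBQLN1 was ordered from NCO down to KO1, at 35.1 ± 1.8 FPKM in NCO, 27.5 ± 1.27 in NC1 and 21.0 ± 0.464 in KO1 (SD, n = 3). It was called in all 3 comparisons, and NCO exceeded NC1 by 0.34 (limma adjusted p = 0.00351).

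VCP, the ATPase that extracts proteins for degradation, and its cofactors gave 3 higher and 2 lower of 8 in NC1 against KO1. Between NCO and NC1 none was called in limma, and 1 was higher and 0 lower at an unadjusted p under 0.05. VCP was at 57.3 ± 0.454 FPKM in NCO, 60.9 ± 0.529 in NC1 and 51.5 ± 1.93 in KO1 (SD, n = 3). Among the genes for ubiquitin and its activating enzymes, UBB averaged 741 ± 15.5 FPKM in NCO, 830 ± 28.4 in NC1 and 943 ± 24.1 in KO1 (SD, n = 3). UBA6 was at 3.79 ± 0.318 FPKM in NCO, 3.46 ± 0.521 in NC1 and 2.08 ± 0.0747 in KO1. Of these 6 genes 3 were higher and 1 lower in NC1 than in KO1, and 0 higher and 3 lower in NCO than in NC1 (0 and 4 at an unadjusted p under 0.05 in limma).

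The NFE2L1 pathway is the known route by which proteasome genes are raised together. NFE2L1 RNA averaged 103 ± 3.28 FPKM in NCO, 86.3 ± 3.97 in NC1 and 92.6 ± 1.58 in KO1 (SD, n = 3), higher in NCO than in NC1 by 0.25 (limma adjusted p = 0.00605). The protease DDI2, which cuts NFE2L1 to its active form, was at 2.65 ± 0.257 FPKM in NCO, 2.14 ± 0.201 in NC1 and 1.44 ± 0.0720 in KO1, and the glycanase NGLY1, which edits it, at 9.25 ± 0.884 FPKM in NCO, 8.79 ± 0.182 in NC1 and 6.77 ± 0.348 in KO1. Of the 12 genes of this list 8 were higher and 2 lower in NCO than in KO1, and 5 higher and 1 lower in NC1 than in KO1. In NCO against NC1 3 were higher and 0 lower (4 and 0 at an unadjusted p under 0.05 in limma). The 8 were NFE2L1, DDI2, NGLY1, VCP, OGT, NFE2L2, SEL1L and SYVN1, and the 2 lower were MAFG and MAFK. MAFG was also the 1 lower in NC1 than in KO1. The list pools genes with different roles, so its counts do not show whether the route was more active. Among all tested genes 32.1% were higher and 20.1% lower in NCO than in KO1, and in NC1 against KO1 the 50% of the list called compare with 47.2%. These are RNA levels; NFE2L1 protein and its processing were not measured here.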

How the data were processed

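The authors deposited 1 value per gene and library. The unit FPKM was inferred from the deposited values, which are not whole numbers, and from the use of StringTie. The submitters' processing notes list it with CASAVA 1.8, Trimmomatic, FastQC, HISAT2, edgeR and the build GRCh38. The annotation release and the use of strand in counting are not given in the sources used here. Depth is unknown, so no counting interval is given.

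The 9 libraries, 3 per group, were fitted together on log2(FPKM + 1) for the 12586 genes with at least 1 FPKM in at least 3 libraries, with limma 3.58.1 under R 4.3.3 (trend, robust), with two-sided p-values and Benjamini-Hochberg adjustment over all of these genes. Differences on this scale understate those of low genes. The fit was tested on simulated data, and 20 alternatives were run. For single genes, lost calls are given for the other scalings and for 1 library left out. Other alternatives lost further calls, which are not all listed. Across the 3 comparisons 14 member calls were lost without a filter on low values, 9 without trend and robust fitting, and 5 with the replicate block.

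Members and lists were chosen with earlier results of these data known. In each comparison the 4 called members that rose most and the 4 that fell most are given by library. So is the member of each role with the largest difference between NC1 and KO1, which makes 16 in all. From each further list up to 4 called genes with the smallest adjusted p could be named. For the NFE2L1 list all genes called between NCO and KO1 are named. Per the deposited positions, 24 members overlap another gene, 9 of them on the same strand, and 12 have named pseudogenes, each at no more than 2.79% of its parent. A gene of the list of ubiquitin shuttles, and the counts over that list, are not reported here.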

Additional observations from a re-analysis of the deposited data

How the results depend on the processing

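In NC1 minus KO1, 11 higher and 8 lower became 7 and 5 at an adjusted p under 0.01, and 4 lower were left with mitochondrial genes removed. All tested genes went from 3637 higher and 2300 lower to 2504 and 1522 at that threshold, with 1737 lower when mitochondrial genes were removed. In NCO minus NC1, 11 lower became 6 without a filter on low values, 4 under quantile normalisation and 4 at an adjusted p under 0.01. The 1 higher became 2 under quantile normalisation and 3 with mitochondrial genes removed. Over all tested genes 1085 lower became 514 of 29350 without a filter, 923 under quantile normalisation and 389 at the stricter threshold. Over the same genes 770 higher became 1072 under quantile normalisation and 1736 with mitochondrial genes removed. In NCO minus KO1, 8 higher and 13 lower became 13 and 7 with mitochondrial genes removed, while all tested genes went from 4041 and 2527 to 5805 and 1614. Leaving out 1 library at a time gave 8 to 11 higher and 6 to 9 lower in NC1 minus KO1. It gave 1 to 2 higher and 6 to 10 lower in NCO minus NC1, and 7 to 10 higher and 10 to 15 lower in NCO minus KO1. Over all tested genes these ranges were 3092 to 3661 and 1860 to 2374 in NC1 minus KO1. In NCO minus NC1 they were 275 to 717 and 633 to 1032, and in NCO minus KO1 3372 to 4163 and 2150 to 2691. The cause of these shifts was not tested, except that no filter means more genes in the adjustment.

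PSMD2 turned from -0.02 in NCO minus KO1 to 0.12 with mitochondrial genes removed (limma adjusted p = 0.0401). Under every alternative, 7 of 11 higher and 4 of 8 lower calls held in NC1 minus KO1, 1 of 1 and 3 of 11 in NCO minus NC1, and 7 of 8 and 7 of 13 in NCO minus KO1.

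Deviations of libraries with the same replicate number correlated at -0.10 to 0.08, so the numbers were not taken to pair the libraries. With the replicate block the counts were 9 higher and 7 lower in NC1 minus KO1, 1 and 10 in NCO minus NC1, and 8 and 12 in NCO minus KO1. Over all tested genes they were 3460 and 2158, 506 and 883, and 3818 and 2412 in the same order. Without counts, precision at low FPKM is not known.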
